A study of Homo sapiens with 25 samples.

Results

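The genes described here encode the proteasome and the factors that assemble or adjust it. They were taken as every protein-coding gene of the deposited RNA table whose symbol is PSMA, PSMB, PSMC, PSMD, PSME, PSMF or PSMG followed by digits, without the 3 immunoproteasome genes PSMB8, PSMB9 and PSMB10. The rule found 45 genes on 17 chromosomes, of 60179 gene identifiers and 19097 protein-coding genes in the table, and used no measured value. They fall into 16 genes of the 20S core, 17 of the 19S regulatory particle, 7 assembly chaperones, 4 alternative activators and 1 inhibitor.

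HEC-1A cells, an epithelial line of wild-type genotype from a human endometrial adenocarcinoma, were given 20 µM THC (tetrahydrocannabinol, a cannabinoid of cannabis) or left untreated. RNA-seq and ATAC-seq, which reads open chromatin by transposon insertion, each had 3 libraries after 24 h of THC, 3 after 72 h of THC and 3 of untreated cells. H3K4me3, the methylated histone form found at active promoters, was mapped by CUT&RUN in 3 THC libraries whose labels give no duration and in 3 untreated libraries. No time is labelled for untreated cells, so exposure and time in culture cannot be told apart. The labels call replicates biological without naming separate cultures, so the p-values here speak for the scatter among these libraries, part of which may be technical.

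The proteasome degrades proteins that carry ubiquitin chains. Its 20S core is a barrel of stacked rings, in which outer alpha subunits form the gate and inner beta subunits hold the proteolytic sites, and the 19S particle caps the barrel, binds and removes ubiquitin and unfolds the substrate with a ring of ATPases. Assembly chaperones build both parts, alternative activators open the core without the 19S particle, and the transcription factor NFE2L1 is known to raise subunit genes together when proteasome activity falls.

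TPM, the unit of the RNA table, is scaled to gene length and to a fixed total per library, so it keeps no sequencing depth, and the depth of these libraries is unknown. Fold changes are differences of log2(TPM + 1) from limma, given with their SE, and understate the change of low genes. A gene is said to have risen or fallen where limma's Benjamini-Hochberg adjusted p over 13753 tested genes, those with a mean of at least 1 TPM, was under 0.05. The median of all tested genes moved by -0.23 at 24 h and by 0.06 at 72 h relative to untreated cells, and by 0.26 between 72 h and 24 h, so the main counts of rises and falls are also given with every library centred on its own median. In bulk RNA, fewer cells of a type and less RNA per cell cannot be told apart. The 6 epithelial markers were all expressed, with summed levels of 4425 to 4489 TPM at 24 h, 3191 to 3438 TPM at 72 h and 2550 to 2666 TPM in untreated cells. Summed list by list, the 7 immune, 6 stromal and 4 endothelial markers reached at most 1.84 TPM in any library.

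Upstream sequences of 6 members are printed here. PSMD1, PSMA2 and PSMB3 fell most at 72 h, and PSME4 and PSMD8 rose most at 24 h. PSMD3 fell at both times and had the largest fall of a lid gene at 24 h, but not one of the largest of all members. Each line gives the 150 bases before the annotated start on the gene's strand, from RefSeq in GRCh38.p14. Capitals mark TGACNNNGC, the core of the antioxidant response element to which NFE2L1 and NFE2L2 bind with small MAF proteins, or CCAAT, the NF-Y box, on either strand.
PSMD1, chr2:231056717-231056866, plus strand: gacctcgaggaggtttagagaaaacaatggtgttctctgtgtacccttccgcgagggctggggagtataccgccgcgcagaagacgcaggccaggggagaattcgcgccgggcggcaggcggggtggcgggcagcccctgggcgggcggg
PSMA2, chr7:42932175-42932324, minus strand: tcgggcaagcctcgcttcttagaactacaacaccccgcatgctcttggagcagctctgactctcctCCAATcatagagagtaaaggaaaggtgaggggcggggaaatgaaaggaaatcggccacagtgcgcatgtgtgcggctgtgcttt
PSMB3, chr17:38752591-38752740, plus strand: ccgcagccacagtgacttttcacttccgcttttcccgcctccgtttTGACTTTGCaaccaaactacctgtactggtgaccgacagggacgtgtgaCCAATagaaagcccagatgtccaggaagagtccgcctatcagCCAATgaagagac
PSMD3, chr17:39980657-39980806, plus strand: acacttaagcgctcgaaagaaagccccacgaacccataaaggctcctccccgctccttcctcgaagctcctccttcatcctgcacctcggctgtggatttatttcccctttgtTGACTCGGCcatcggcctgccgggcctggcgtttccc
PSME4, chr2:53970994-53971143, minus strand: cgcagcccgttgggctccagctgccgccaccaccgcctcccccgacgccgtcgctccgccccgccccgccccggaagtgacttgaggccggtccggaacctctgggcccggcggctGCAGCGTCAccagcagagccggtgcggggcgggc
PSMD8, chr19:38374421-38374570, plus strand: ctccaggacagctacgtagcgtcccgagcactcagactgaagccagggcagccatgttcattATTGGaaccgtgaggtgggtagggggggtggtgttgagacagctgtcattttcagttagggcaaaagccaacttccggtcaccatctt
The antioxidant core thus stands before the start of genes that fell (PSMB3, PSMD3) and of 1 that rose (PSME4), and PSMA2, PSMD1 and PSMD8 hold none in these stretches. A match in PSMD1 begins 39 bases after its start, outside the stretch printed, and is included in the motif counts below.

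In TPM as deposited, most proteasome genes were lower after THC at both times. With libraries centred on their medians, most fell at 72 h but not at 24 h. At 24 h, 5 of 43 tested members rose and 33 fell (76.7%), where 25.0% of all tested genes rose and 51.7% fell. At 72 h, 4 members rose and 29 fell (67.4%), where 40.1% of all tested genes rose and 33.0% fell. The members' median change was -0.30 at 24 h and -0.29 at 72 h. With libraries centred on their medians, 7 of 43 rose and 19 fell at 24 h, and 2 rose and 33 fell at 72 h. Of 13753 tested genes, 4954 then rose and 5128 fell at 24 h, and 4790 rose and 5347 fell at 72 h. The size of the members' 24 h count thus depends on the scaling more than the 72 h count does. THC and untreated libraries did not overlap for 38 members at 24 h and for 34 at 72 h, against 78.6% and 76.6% of all tested genes.

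Few members passed 2-fold. PSMD1 was the 1 member to fall at least 2-fold at 24 h, where 10.6% of all tested genes did, and PSMD1 and PSMA2 did so at 72 h, where 5.56% of all tested genes did. At least 1.5-fold falls were found for 11 members at 24 h and for 6 at 72 h, and no member rose 1.5-fold at either time. These counts move with the scaling: after centring, PSMD1 (-0.88) was the 1 member to fall 1.5-fold at 24 h, 0 fell 2-fold, and PSMD8 (0.66), PSME4 (0.61) and PSMF1 (0.59) rose 1.5-fold. At 72 h after centring, 8 fell 1.5-fold, PSMD1 and PSMA2 fell 2-fold and 0 rose 1.5-fold. Comparisons of 24 h and of 72 h share the untreated libraries. In them 26 members fell both times, and PSMC4, PSMD4, PSMD8 and PSMF1 rose both times. After centring 16 fell both times, and PSMC4 and PSMF1 rose both times. Shares of all tested genes were not counted at 1.5-fold, at 2-fold after centring, or for both times, so those counts describe the members alone. PSMA8, a core subunit of the testis, was listed at 0 in all 9 libraries, and PSMB11, a core subunit of the thymus, did not pass 0.0310 TPM, so neither was tested.

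**Figure D1:**
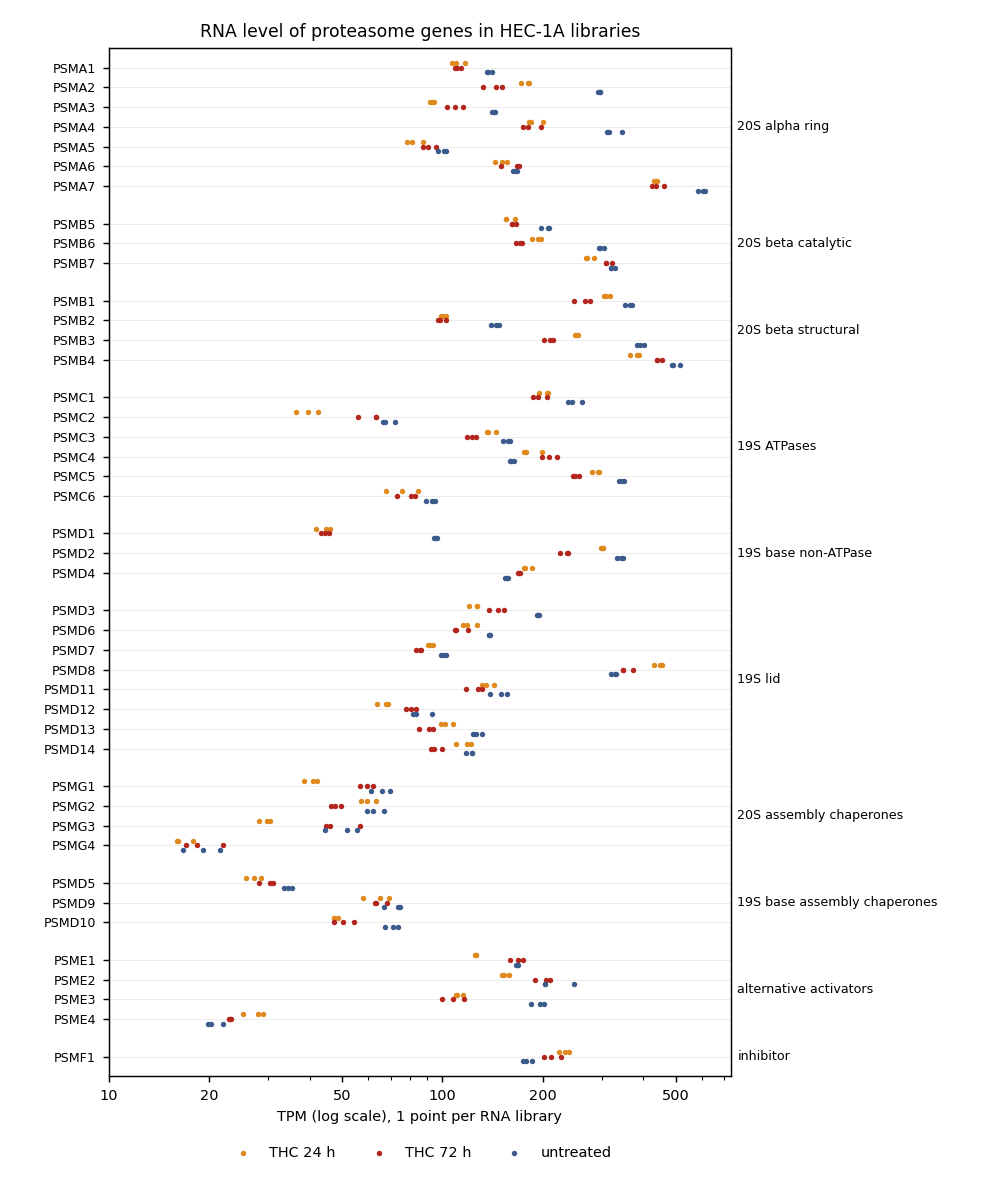
TPM (log axis) of the 43 expressed proteasome genes in each RNA library, grouped by role, with THC 24 h, THC 72 h and untreated libraries drawn in that order for each gene. Core genes such as PSMA2 and PSMB6 sit left of their untreated points at both times, and PSMD8, PSMC4 and PSMF1 sit right of them.

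**Figure D2:**
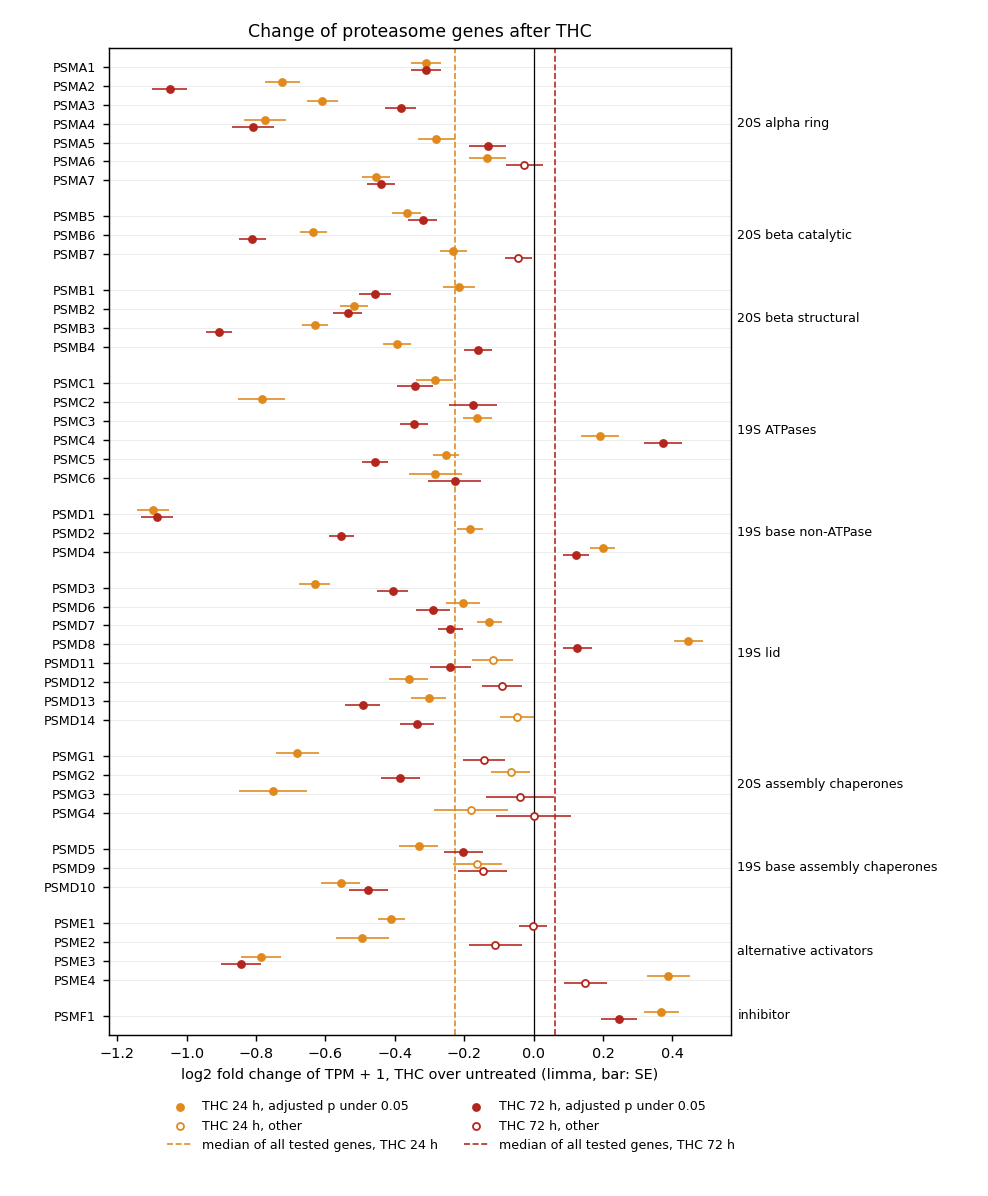
Log2 fold change of TPM + 1 against untreated cells with limma's SE for each member at 24 h and 72 h of THC, filled where the adjusted p is under 0.05, with dashed lines at the medians of all tested genes (-0.23 and 0.06). All 14 core genes lie left of 0 at both times, and PSMD1 lies farthest left.

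In TPM as deposited, the core genes moved in 1 direction. All 14 expressed 20S genes fell at 24 h, with changes of -0.77 to -0.13, and 12 of them fell at 72 h, with changes of -1.05 to -0.03 over the 14. Their summed level was 2909 ± 50.1 TPM at 24 h and 2905 ± 32.4 TPM at 72 h, against 3986 ± 32.2 TPM in untreated cells (SD, n = 3 each), or 73.0% and 72.9% of the untreated mean. Among all tested genes 51.7% fell at 24 h and 33.0% at 72 h. After centring 0 core genes rose and 9 fell at 24 h, and 0 rose and 13 fell at 72 h. Of 13753 tested genes, 5128 then fell at 24 h and 5347 at 72 h.

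The 3 catalytic subunits fell by different amounts at 24 h. PSMB6, which cleaves after acidic residues, stood at 193, 198 and 186 TPM at 24 h and at 171, 166 and 173 TPM at 72 h, against 295, 296 and 306 TPM in untreated libraries. Each time group lay below untreated without overlap, by -0.64 (SE 0.0386, limma adjusted p = 1.73e-07) at 24 h and -0.81 (adjusted p = 3.4e-08) at 72 h. PSMB5, the chymotrypsin-like site and the main target of proteasome inhibitor drugs, had 155, 165 and 155 TPM at 24 h and 167, 162 and 162 TPM at 72 h, against 209, 208 and 197 TPM in untreated libraries. It too was lower in every THC library, by -0.37 (SE 0.0417, limma adjusted p = 1.82e-05) and -0.32 (adjusted p = 5.56e-05). PSMB7, the trypsin-like site, had 271, 285 and 269.8 TPM at 24 h and 323, 309.9 and 308 TPM at 72 h, against 321, 320.3 and 329 TPM in untreated libraries. It fell at 24 h (-0.23, limma adjusted p = 0.000284), and at 72 h its range overlapped that of untreated libraries (-0.04, adjusted p = 0.32). At 72 h PSMB7 was lower after centring (-0.13, limma adjusted p = 0.0148) and when TPM was rescaled without mitochondrially encoded genes (-0.14, adjusted p = 0.00873), and all 3 catalytic genes then fell. Between the times PSMB6 was lower at 72 h than at 24 h (-0.17, limma adjusted p = 0.00214), and PSMB7 was higher (0.19, adjusted p = 0.00134) but lower after centring (-0.12, adjusted p = 0.0275).

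Among the other core genes the largest falls were those of PSMA4 at 24 h and of PSMA2 and PSMB3 at 72 h. PSMA4, an alpha ring subunit, had 182, 200.3 and 184 TPM at 24 h and 175, 197 and 181 TPM at 72 h, against 311, 315 and 345 TPM in untreated libraries. Every THC library was lower than every untreated one, and the change was -0.77 (SE 0.0608, limma adjusted p = 1.13e-06) at 24 h and -0.81 (adjusted p = 9.1e-07) at 72 h. PSMA2, also of the alpha ring, had 172, 182 and 180.5 TPM at 24 h and 132, 150.5 and 144 TPM at 72 h, against 296, 297 and 292 TPM in untreated libraries. The 3 groups were separate and the lowest was 72 h: the change was -0.72 (SE 0.0498, limma adjusted p = 4.19e-07) at 24 h and -1.05 (adjusted p = 3.35e-08) at 72 h. PSMB3, a structural beta subunit, had 252, 249.9 and 255 TPM at 24 h and 214, 201 and 209.7 TPM at 72 h, against 382, 402 and 390.5 TPM in untreated libraries. Its groups were separate as well, with changes of -0.63 (limma adjusted p = 1.63e-07) and -0.91 (adjusted p = 1.4e-08). PSMA7, an alpha subunit and the most abundant member in untreated cells, averaged 436 ± 4.15 TPM at 24 h and 441 ± 18.5 TPM at 72 h, against 599 ± 15.3 TPM in untreated cells (SD, n = 3 each).

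Near the threshold stood PSMA6, an alpha subunit, which fell at 24 h by 0.13 (limma adjusted p = 0.0399), with an adjusted p of 0.129 without THC 24 h replicate 1, 0.0686 without THC 24 h replicate 2, and 0.104, 0.0797 and 0.0623 without untreated replicates 1, 2 and 3. PSMA5, which fell at 72 h by 0.13 (limma adjusted p = 0.0468), lost that call without THC 72 h replicates 2 (0.0985) and 3 (0.152), untreated replicates 2 (0.126) and 3 (0.105), and THC 24 h replicate 3 (0.0649). After centring, PSMA6 and PSMB1 were not lower at 24 h (0.08 and 0.0012, not called), and the falls of PSMA1 (-0.09, adjusted p = 0.0833), PSMA5 (-0.06, adjusted p = 0.269) and PSMB7 (-0.01, adjusted p = 0.765) were not called.

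**Figure D3:**
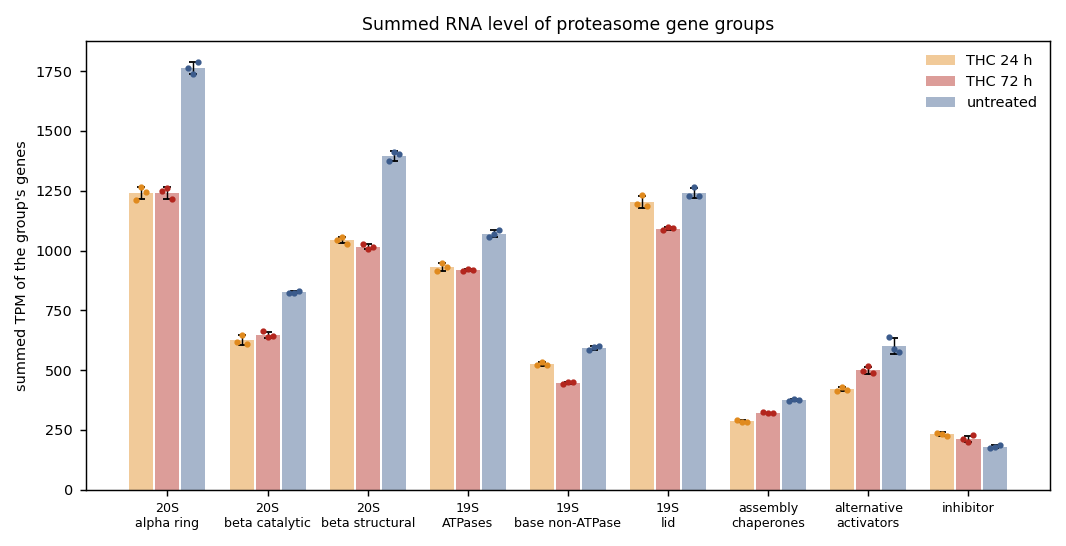
Summed TPM of each group of proteasome genes at THC 24 h, THC 72 h and in untreated cells (bars: mean, error bars: SD, points: 3 libraries each). The 3 groups of core genes are lower after THC by a wider margin than the 19S lid, whose 24 h and untreated points overlap.

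Genes of the 19S particle were more mixed. Its counts, sums and ratios here cover the 17 subunit genes with PSMC or PSMD symbols. Subunits without such a symbol, such as the lid subunit SEM1, are left out and read further below. Among all tested genes 51.7% fell at 24 h and 33.0% at 72 h. Of the 17 genes, 3 rose and 12 fell (70.6%) at 24 h, and 3 rose and 13 fell (76.5%) at 72 h. Their median change was -0.20 at 24 h and -0.29 at 72 h, where that of the 20S genes was -0.42 and -0.41. After centring, 4 rose and 4 fell at 24 h, and 1 rose and 14 fell at 72 h. Their summed level was 2660.3 ± 45.5 TPM at 24 h and 2456 ± 14.2 TPM at 72 h, against 2905 ± 30.8 TPM in untreated cells (SD, n = 3 each), or 91.6% and 84.5% of the untreated mean.

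The balance between core and cap genes therefore differed between groups within each library, where a common scaling of TPM cancels. The mean TPM of the 14 core genes was 1.33, 1.33 and 1.33 times that of the 17 19S genes in the libraries at 24 h and 1.46, 1.43 and 1.42 times at 72 h, against 1.67, 1.65 and 1.68 times in untreated libraries. The 3 groups did not overlap. Without PSMD8, the 19S gene with the highest mean TPM over all libraries, a setting chosen after seeing the data, the mean ratio was 1.501 ± 0.0103 at 24 h and 1.58 ± 0.0212 at 72 h, against 1.77 ± 0.0173 in untreated cells (SD, n = 3 each). Since the members were chosen with results of these data known, no p is given for this ratio.

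In the base of the 19S particle, 5 of the 6 ATPase genes fell and 1 rose at each time. The shares of all tested genes that fell were 51.7% at 24 h and 33.0% at 72 h. After centring 1 ATPase gene rose and 1 fell at 24 h, and 1 rose and 5 fell at 72 h. PSMC2 had 36.3, 39.7 and 42.3 TPM at 24 h and 63.1, 63.0 and 55.9 TPM at 72 h, against 66.6, 72.0 and 67.1 TPM in untreated libraries. It was lowest at 24 h (-0.78, SE 0.0684, limma adjusted p = 2.47e-06), and the difference between 72 h and 24 h was 0.61 (adjusted p = 2.22e-05). Its small fall at 72 h (-0.18, limma adjusted p = 0.0397) was lost without THC 72 h replicate 3 (0.149) and without untreated replicates 1 (0.0535), 2 (0.132) or 3 (0.0605). PSMC4, the ATPase that rose, had 199, 176 and 179 TPM at 24 h and 208, 199 and 219.8 TPM at 72 h, against 160.1, 159 and 164 TPM in untreated libraries. All THC libraries lay above the untreated ones, with changes of 0.19 (SE 0.0549, limma adjusted p = 0.00888) at 24 h and 0.37 (adjusted p = 0.000133) at 72 h. At 24 h PSMC4 was not called (0.13, adjusted p = 0.0506) when TPM was rescaled without mitochondrially encoded genes.

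PSMD1, a scaffold of the base, fell most of all members. Its RNA stood at 41.8, 45.9 and 44.9 TPM at 24 h and at 45.7, 44.5 and 43.3 TPM at 72 h, against 94.7, 96.6 and 95.5 TPM in untreated libraries. The THC libraries of both times overlapped each other and lay far below the untreated ones, at -1.10 (SE 0.0463, limma adjusted p = 1.41e-08) at 24 h and -1.09 (adjusted p = 1.55e-08) at 72 h. PSMD2, the other large scaffold of the base, had 303, 302 and 299 TPM at 24 h and 225, 236 and 237 TPM at 72 h, against 335, 343 and 349 TPM in untreated libraries. It fell by 0.18 (limma adjusted p = 0.00103) at 24 h and by 0.55 (adjusted p = 3.68e-07) at 72 h, and after centring it was not lower at 24 h (0.03, not called). PSMD4, a ubiquitin receptor, had 175, 186 and 176 TPM at 24 h and 171, 169.7 and 168 TPM at 72 h, against 154, 156 and 157 TPM in untreated libraries. It was higher in every THC library, by 0.20 (SE 0.0364, limma adjusted p = 0.000564) and 0.12 (adjusted p = 0.0117). At 72 h the rise of PSMD4 was not called after centring (0.03, adjusted p = 0.409) or when TPM was rescaled without mitochondrially encoded genes (0.03, adjusted p = 0.464).

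In the 19S lid, 1 of 8 genes rose and 5 fell (62.5%) at 24 h, and 1 rose and 6 fell (75.0%) at 72 h. The shares of all tested genes that fell were 51.7% and 33.0%. After centring 2 rose and 2 fell at 24 h, and 0 rose and 7 fell at 72 h. PSMD8, the lid subunit that joins last in assembly, had 455, 447 and 430.2 TPM at 24 h and 348, 347 and 372 TPM at 72 h, against 319, 328 and 330.4 TPM in untreated libraries. It was highest at 24 h (0.45, SE 0.0413, limma adjusted p = 3.86e-06) and lower at 72 h than at 24 h (-0.32, adjusted p = 5.75e-05). Its rise at 72 h (0.13, limma adjusted p = 0.0191) was lost without THC 72 h replicate 3 (0.0689), without untreated replicate 1 (0.0684), after centring (0.455) and when TPM was rescaled without mitochondrially encoded genes (0.481). PSMD14, the enzyme that cuts ubiquitin chains off the substrate, had 109.9, 122 and 119 TPM at 24 h and 94.2, 99.5 and 92.8 TPM at 72 h, against 117, 122 and 123 TPM in untreated libraries. The 24 h libraries overlapped untreated ones (-0.05, limma adjusted p = 0.379) and the 72 h libraries lay below both (-0.34, adjusted p = 0.000126). After centring PSMD14 was higher at 24 h (0.17, limma adjusted p = 0.00886). PSMD3, a lid scaffold subunit, averaged 125 ± 3.78 TPM at 24 h and 146 ± 7.51 TPM at 72 h, against 194 ± 1.56 TPM in untreated cells (SD, n = 3 each), the largest fall of a lid gene at 24 h (-0.63, limma adjusted p = 5.62e-07).

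Of the 7 assembly chaperones, 0 rose and 4 fell (57.1%) at 24 h, and 0 rose and 3 fell (42.9%) at 72 h. The shares of all tested genes that fell were 51.7% and 33.0%. After centring, 1 rose and 3 fell at 24 h, and 0 rose and 5 fell at 72 h. PSMG3, which helps build the alpha ring, had 29.8, 30.4 and 28.3 TPM at 24 h and 56.7, 44.8 and 46.0 TPM at 72 h, against 55.3, 51.7 and 44.4 TPM in untreated libraries. The 24 h libraries were lowest (-0.75, SE 0.0983, limma adjusted p = 5.1e-05) and those of 72 h overlapped the untreated ones (-0.04, adjusted p = 0.732). PSMG1, the partner of PSMG2 in a chaperone pair, had 41.1, 38.4 and 42.2 TPM at 24 h and 56.6, 59.3 and 62.1 TPM at 72 h, against 65.9, 61.2 and 69.9 TPM in untreated libraries. It was low at 24 h (-0.68, SE 0.0608, limma adjusted p = 2.98e-06), and its 72 h value (-0.14, adjusted p = 0.0553) passed the threshold without THC 72 h replicate 3 (0.041) or untreated replicate 2 (0.0204). PSMG1 was also called lower at 72 h after centring (-0.23, limma adjusted p = 0.014), with TPM rescaled without mitochondrially encoded genes (-0.23, adjusted p = 0.00623) and with a replicate block (0.0254).

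PSMG2 had 59.3, 57.1 and 63.2 TPM at 24 h and 46.2, 49.7 and 47.5 TPM at 72 h, against 59.6, 66.7 and 62.0 TPM in untreated libraries. The 24 h libraries overlapped the untreated ones (-0.07, limma adjusted p = 0.308) and the 72 h libraries were lower (-0.38, adjusted p = 0.000143). After centring PSMG2 was higher at 24 h (0.15, limma adjusted p = 0.0227). PSMD10, a chaperone of the ATPase ring also known as the oncoprotein gankyrin, fell at both times (-0.56 and -0.48, limma adjusted p = 8.06e-06 and 2.91e-05), as did PSMD5 (-0.33 and -0.20, adjusted p = 0.000319 and 0.00771), while PSMD9 (-0.16 and -0.15, adjusted p = 0.0571 and 0.082) and PSMG4 (-0.18, adjusted p = 0.149, at 24 h) did not pass the test. PSMD9 passed at 24 h without THC 24 h replicate 1 (0.0172) or untreated replicate 1 (0.0303) and at 72 h without THC 24 h replicate 3 (0.0479) or untreated replicate 1 (0.0427). PSMG4 passed at 24 h without untreated replicate 3 (0.0459) or with a replicate block (0.0254). With TPM rescaled without mitochondrially encoded genes, PSMD9 was lower at 24 h (-0.22, limma adjusted p = 0.014) and 72 h (-0.24, adjusted p = 0.0107). After centring PSMD9 was lower at 72 h (-0.23, limma adjusted p = 0.0115), and at 24 h neither PSMD9 (0.06) nor PSMG4 (0.04) was called.

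The alternative activators split. PSME3, an activator of the nucleus, had 110.2, 115 and 111 TPM at 24 h and 116, 108 and 99.9 TPM at 72 h, against 202, 196 and 185 TPM in untreated libraries. It was lower in all THC libraries, by -0.79 (SE 0.0579, limma adjusted p = 6.98e-07) and -0.84 (adjusted p = 4.81e-07). PSME1, which forms an interferon-inducible cap with PSME2, had 126, 125 and 126 TPM at 24 h and 169, 174 and 159 TPM at 72 h, against 168, 166 and 167 TPM in untreated libraries. The fall at 24 h (-0.41, SE 0.0402, limma adjusted p = 5.91e-06) was followed by overlap at 72 h (-0.0029, adjusted p = 0.952). PSME2 changed by -0.49 (limma adjusted p = 0.000172) at 24 h and had -0.11 (adjusted p = 0.21) at 72 h.

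PSME4, a nuclear activator, and PSMF1, an inhibitor of the core in vitro, were among the few members that rose. PSME4 had 25.3, 28.9 and 28.1 TPM at 24 h and 22.9, 23.2 and 23.03 TPM at 72 h, against 19.9, 22.0 and 20.3 TPM in untreated libraries. The 3 groups did not overlap, and the change was 0.39 (SE 0.0616, limma adjusted p = 0.000209) at 24 h and 0.15 (adjusted p = 0.0501) at 72 h. At 72 h PSME4 passed without THC 24 h replicates 1 (0.0263) or 2 (0.045) or untreated replicate 2 (0.0263), and after centring it was smaller and not called (0.06, adjusted p = 0.327). PSMF1 had 239, 234 and 223 TPM at 24 h and 211, 201 and 227 TPM at 72 h, against 175, 178 and 185 TPM in untreated libraries. Every THC library lay above the untreated ones, by 0.37 (SE 0.0510, limma adjusted p = 7.83e-05) and 0.25 (adjusted p = 0.00143).

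Between the THC times themselves, 12 members were higher at 72 h than at 24 h and 13 were lower, where 54.9% of all tested genes were higher and 17.8% lower. The members' median difference was 0.0014, and that of all tested genes 0.26. After centring, 3 members were higher and 32 lower, where 4176 of 13753 tested genes were higher and 5217 lower. The largest rises were PSMG3 (0.71, limma adjusted p = 9.4e-05), PSMC2 (0.61), PSMG1 (0.54, adjusted p = 2.35e-05) and PSME1 (0.41, adjusted p = 9.04e-06), all genes that were low at 24 h. The largest falls were PSMD2 (-0.37, limma adjusted p = 9.11e-06), PSMA2 (-0.32, adjusted p = 0.000199), PSMD8 (-0.32) and PSMG2 (-0.32, adjusted p = 0.000568). PSMC2, PSMG1, PSMG3 and PSME1 had thus fallen at 24 h and stood nearer their untreated level at 72 h, while PSMA2, PSMD2 and PSMG2 had their lowest level at 72 h. After centring the difference of PSME1 was not called (0.10, adjusted p = 0.0518).

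The immunoproteasome genes, which encode interferon-inducible replacements of the catalytic subunits, differed by time. PSMB9, which replaces PSMB6, had 30.2, 25.1 and 30.0 TPM at 24 h and 98.7, 94.2 and 91.2 TPM at 72 h, against 29.0, 29.2 and 31.3 TPM in untreated libraries. It was near the untreated level at 24 h (-0.07, limma adjusted p = 0.378) and rose at 72 h by 1.63 (SE 0.0716, adjusted p = 1.93e-08). PSMB8, which replaces PSMB5, had 34.5, 36.9 and 34.5 TPM at 24 h and 89.7, 85.5 and 84.4 TPM at 72 h, against 46.8, 49.5 and 48.0 TPM in untreated libraries. It fell at 24 h (-0.44, limma adjusted p = 1.17e-05) and rose at 72 h (0.83, adjusted p = 1.14e-07). PSMB10, which replaces PSMB7, fell at both times (-0.36 and -0.27, limma adjusted p = 0.00378 and 0.0204). PSMB10 was not called at 24 h after centring (-0.15, limma adjusted p = 0.191), nor at 72 h without THC 72 h replicates 2 (0.0556) or 3 (0.0508) or untreated replicate 3 (0.0747).

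Set against its partner in the same library, PSMB9 was 0.148 ± 0.0185 times PSMB6 at 24 h and 0.557 ± 0.0258 times at 72 h, against 0.0998 ± 0.00224 times in untreated cells (SD, n = 3 each). PSMB8 was 0.223 ± 0.000806 times PSMB5 at 24 h and 0.529 ± 0.00834 times at 72 h, against 0.235 ± 0.0103 times in untreated cells. PSMB10 was 0.0733 ± 0.0123 times PSMB7 at 24 h and 0.0684 ± 0.000594 times at 72 h, against 0.0805 ± 0.00357 times in untreated cells. The PSMB8 and PSMB9 ratios of the 72 h libraries lay above those of all other libraries.

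**Figure D4:**
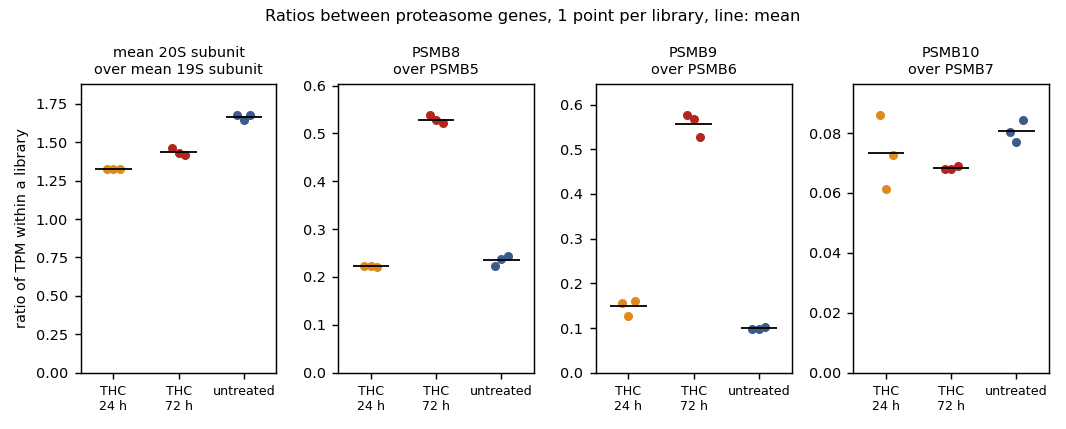
Ratios of TPM within each RNA library at THC 24 h, THC 72 h and in untreated cells (points: libraries, lines: means of 3). The core to 19S ratio is lowest at 24 h (1.33) and highest in untreated cells (1.67), and the ratios of PSMB8 and PSMB9 to PSMB5 and PSMB6 stand apart at 72 h (0.529 and 0.557).

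Genes known to control or complete the proteasome were read from lists chosen with earlier results of these data known. Of 9 regulators of proteasome genes, 8 rose and 0 fell at 24 h, and 7 rose and 0 fell at 72 h. The shares of all tested genes that rose were 25.0% and 40.1%. After centring 9 rose at 24 h. NFE2L1 averaged 209 ± 10.5 TPM at 24 h and 258 ± 13.99 TPM at 72 h, against 165 ± 8.67 TPM in untreated cells (SD, n = 3 each), rises of 0.34 (limma adjusted p = 0.000294) and 0.64 (adjusted p = 3.25e-06). Its relative NFE2L2, the oxidative stress regulator, rose by 0.54 (limma adjusted p = 2.66e-06) and 0.55 (adjusted p = 2.55e-06). DDI2, the protease that activates NFE2L1, did not pass the test at either time (0.14 and -0.01, limma adjusted p = 0.163 and 0.94). At 24 h DDI2 passed without THC 24 h replicate 1 (0.0425) and after centring (0.36, limma adjusted p = 0.00301).

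Small MAF genes, whose proteins pair with NFE2L1 and NFE2L2 on DNA, rose more. MAFF reached 71.1 ± 0.150 TPM at 24 h and 57.5 ± 2.98 TPM at 72 h, against 16.9 ± 0.519 TPM in untreated cells (2.01 and 1.71, limma adjusted p = 4.38e-10 and 1.17e-09). MAFK rose by 1.14 (limma adjusted p = 4.54e-06) and 0.88 (adjusted p = 3.43e-05). SYVN1, a ubiquitin ligase of the endoplasmic reticulum that marks NFE2L1 for degradation, averaged 40.0 ± 0.442 TPM at 24 h and 87.0 ± 4.81 TPM at 72 h, against 27.8 ± 1.86 TPM in untreated cells (0.51 and 1.61, limma adjusted p = 1.78e-05 and 5.29e-09).

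Of 10 further subunits and assembly factors, 4 rose and 4 fell (40.0%) at 24 h, and 2 rose and 5 fell (50.0%) at 72 h. The shares of all tested genes that fell were 51.7% and 33.0%. After centring 5 rose and 3 fell at 24 h, and 1 rose and 7 fell at 72 h. POMP, the chaperone that builds the beta ring, averaged 84.8 ± 4.16 TPM at 24 h and 86.0 ± 6.24 TPM at 72 h, against 119.7 ± 6.01 TPM in untreated cells (-0.49 and -0.47, limma adjusted p = 4.06e-05 and 6.03e-05). SEM1, a small lid subunit, fell by 0.59 (limma adjusted p = 0.000121) at 24 h and by 0.27 (adjusted p = 0.0181) at 72 h, the second call being lost without THC 72 h replicate 3 (0.0648) or untreated replicate 1 (0.0637). AKIRIN2, which carries proteasomes into the nucleus, rose by 0.61 (limma adjusted p = 3.28e-06) and 0.35 (adjusted p = 0.000232), and the proteasome-bound ligase UBE3C moved by -0.35 (adjusted p = 0.000558) and -0.54 (adjusted p = 2.61e-05).

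Of 5 tested genes for ubiquitin and its activating enzymes, 2 rose and 2 fell at 24 h, and 3 rose and 2 fell at 72 h. Among all tested genes 25.0% rose and 51.7% fell at 24 h, and 40.1% rose and 33.0% fell at 72 h. After centring 3 of the 5 rose and 1 fell at 24 h, and 3 rose and 2 fell at 72 h. UBA6, a ubiquitin-activating enzyme of this list, fell by 0.46 and 0.50 (limma adjusted p = 2.36e-05 and 1.42e-05). Of 11 shuttle and VCP genes, 5 rose and 4 fell (36.4%) at 24 h, and 3 rose and 4 fell (36.4%) at 72 h. The shares of all tested genes that fell were 51.7% and 33.0%. After centring 6 rose and 2 fell at 24 h, and 2 rose and 4 fell at 72 h. SQSTM1, a receptor that carries ubiquitinated cargo to autophagy, rose by 1.05 and 1.44 (limma adjusted p = 1.79e-07 and 2.08e-08), and VCP, the unfoldase that extracts ubiquitinated proteins, fell by 0.38 and 0.43 (adjusted p = 1.76e-05 and 7.57e-06).

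Complexes of related architecture were read beside the proteasome. Of 10 genes of the COP9 signalosome, which resembles the 19S lid, 1 rose and 8 fell at 24 h, and 0 rose and 7 fell at 72 h, with medians of -0.29 and -0.28. Of 8 genes of the CCT chaperonin, a folding complex, 0 rose and 7 fell at 24 h, and 0 rose and 8 fell at 72 h, with medians of -0.37 and -0.85. Among all tested genes 51.7% fell at 24 h and 33.0% at 72 h. After centring, 2 COP9 genes rose and 4 fell at 24 h and 0 rose and 7 fell at 72 h, and 1 CCT gene rose and 4 fell at 24 h and 0 rose and 8 fell at 72 h. Differences between these lists and the proteasome genes were not tested.

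Most member promoters were listed as open and as H3K4me3-marked in every library. The deposited lists give peaks per library, and a gene was counted as listed where a peak overlapped 500 bases either side of any annotated start in RefSeq (GRCh38.p14). A start was found for 39 members, of which 37 are expressed, and entries for PSMA7, PSMB1, PSMB6, PSMB7, PSMD4 and PSMG3 were not in the table. All 37 expressed members were listed in all 6 H3K4me3 libraries, where 94.0% of tested genes with a start were. In all 9 ATAC lists 33 of the 37 were listed, where 77.9% of tested genes were. The exceptions were PSMA4, PSMB5, PSMC1 and PSMG4. Without THC 72 h replicate 2, the shortest ATAC list at 38495 peaks of 38495 to 150884 per library, 36 were listed, where 87.7% of tested genes were. With peaks required to cover the start base, 25 of the 37 were in all 9 ATAC lists, where 58.7% of tested genes were. PSMA8 and PSMB11, which were not expressed, had no H3K4me3 peak within 2500 bases of the gene in any library.

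H3K4me3 peaks at members had similar widths in both groups, with overlapping ranges for all but 1 gene. Over the 37 listed members, the median summed width was 3893, 3727 and 3995 bases in THC libraries and 4002, 3967 and 3802 bases in untreated libraries. No member had wider peaks in all 3 THC than in all 3 untreated libraries, where 8.93% of genes listed in all 6 libraries did. Only PSMD1 had narrower peaks by that measure, at 3320, 3381 and 3541 bases in THC libraries and 3790.0, 3861 and 3978 bases in untreated libraries, where 3.48% of such genes did. A count of 1 in 37 is near that background share.

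**Figure D5:**
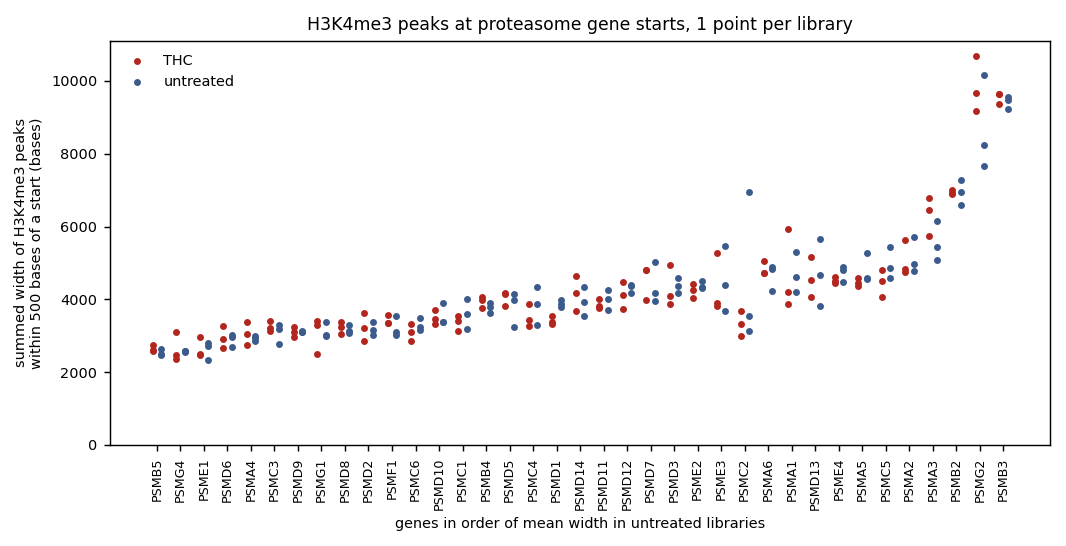
Summed width in bases of H3K4me3 peaks within 500 bases of a start for the 37 listed members in THC and untreated libraries (points: 3 libraries each), ordered by mean untreated width. The ranges of THC and untreated libraries overlap for every gene but PSMD1.

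Upstream motifs were counted in RefSeq promoters of 250 bases before to 50 after a start, on both strands, for 39 members and 15842 protein-coding genes. TGACNNNGC was found in 14 members (35.9%) and in 17.9% of all genes, and CCAAT in 19 members (48.7%) and 42.1%. TGATGNAA, the composite core bound by CHOP with ATF4, was found in 1 member, PSMF1 (2.56%), and in 3.60% of all genes. Of the 14 members with TGACNNNGC, 2 rose and 10 fell at 24 h, and 1 rose and 7 fell at 72 h. Of the 23 tested members with a promoter and without it, 2 rose and 18 fell at 24 h, and 2 rose and 19 fell at 72 h. Among all tested genes 51.7% fell at 24 h and 33.0% at 72 h. After centring, 3 rose and 8 fell at 24 h and 1 rose and 10 fell at 72 h with the motif, and 3 rose and 8 fell at 24 h and 1 rose and 19 fell at 72 h without it. The sequence printed for PSMB3 holds the core with 2 NF-Y boxes, and that of PSME4, which rose at 24 h, holds it on the other strand. A match is a run of letters and not a measured binding site.

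The table lists 44 pseudogenes named after members, of which 3 reached 1 TPM in a library. PSMC1P1 lay at 9.02 to 15.1 TPM at 24 h and at 6.30 to 10.9 TPM at 72 h, against 11.3 to 16.4 TPM in untreated libraries, and PSMC1P5 at 0 to 13.8 TPM, 0 to 10.9 TPM and 0 TPM. PSMC1 itself averaged 203 TPM at 24 h and 195 TPM at 72 h, against 248 TPM in untreated cells, and as whether reads were shared with pseudogenes was not tested, PSMC1 and PSMD10 are given as uncertain. PSMD10P2 lay at 2.25 to 3.21 TPM at 24 h and at 7.52 to 8.21 TPM at 72 h, against 0.341 to 0.512 TPM in untreated libraries. PSMD10, which moved the other way, averaged 47.8 TPM at 24 h and 50.6 TPM at 72 h (47.2 to 54.2 TPM), against 70.8 TPM in untreated cells.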

How the data were processed

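The authors deposited RNA levels in TPM for 60179 Ensembl identifiers. The submitters' processing notes name the build GRCh38 and, without roles, MACS2 2.2.7.1, MACS3, Picard, SAMtools, Bowtie2, FastQC, Trim Galore and Salmon. Per the labels' protocols RNA libraries came from a stranded total RNA kit. Whether counting used strand is not stated in the labels. Peaks were called per library by the authors. The deposited fold enrichment (a ratio), score and -log10 p columns were not used, and the deposited -log10 q column served for a stricter alternative.

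Symbols were matched for 59918 identifiers. limma 3.58.1 in R 4.3.3 fitted 3 groups of 3 libraries on log2(TPM + 1), eBayes with trend, over the genes whose mean reached 1 TPM, and was tested on simulated data. Peaks on chromosomes 1 to 22 and X, promoters and sums were computed with pandas 2.3.3 and numpy 2.4.6 (Python 3.11.15), and figures drawn with matplotlib 3.10.9.

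Groups came from the labels; 24 of 25 samples had a file, and an IgG sample was not analysed here. Named members are, per comparison, the 4 largest rises and falls with separate groups, plus PSMB5, PSMB6, PSMB7, PSMD4 and PSMD14; of the pathway lists, fixed genes and up to 2 called genes with the largest change. Others were chosen after their values were seen. Members and lists were chosen with earlier results of these data known. Alternatives were pseudocount, filters, scalings, replicate block, spread model, groups fitted and each library left out. 1 gene of the pathway lists is not reported here.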

Additional observations from a re-analysis of the deposited data

Results flagged for a closer look

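The following genes differed between 72 h and 24 h of THC by limma's test of that difference, each value being the log2 difference, 72 h minus 24 h. The 2 comparisons with untreated cells share those libraries, and no explanation was tested.

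Among core genes PSMA3 (0.23), PSMA5 (0.15), PSMB4 (0.23) and PSMB7 (0.19) were higher at 72 h, and PSMA2 (-0.32), PSMB1 (-0.24), PSMB3 (-0.28) and PSMB6 (-0.17) were lower. Among 19S genes PSMC2 (0.61), PSMC4 (0.18), PSMD3 (0.22) and PSMD12 (0.27) were higher, and PSMC3 (-0.18), PSMC5 (-0.21), PSMD2 (-0.37), PSMD7 (-0.11), PSMD8 (-0.32), PSMD13 (-0.19) and PSMD14 (-0.29) were lower. Among chaperones and activators PSMG1 (0.54), PSMG3 (0.71), PSME1 (0.41) and PSME2 (0.38) were higher, and PSMG2 (-0.32) and PSME4 (-0.24) were lower.

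Of genes around the proteasome, PSMB8 (1.27), PSMB9 (1.71), SYVN1 (1.10), SQSTM1 (0.40), SEM1 (0.33) and NFE2L1 (0.30) were higher at 72 h, and MAFF (-0.30), AKIRIN2 (-0.26) and UBE3C (-0.19) were lower.

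With libraries centred on their medians the sign turned for PSMA3, PSMA5, PSMB4, PSMB7, PSMC4, PSMD3, PSMD12 and NFE2L1, and the differences of PSME1, PSME2, SEM1 and SQSTM1 were not called. PSMC4 was not called without THC 24 h replicate 3 (adjusted p = 0.0507), PSMD7 without THC 24 h replicate 3 (0.0773) or THC 72 h replicate 3 (0.0572), UBE3C without THC 24 h replicates 2 (0.0698) or 3 (0.0632) or THC 72 h replicates 2 (0.0642) or 3 (0.0546), and PSMA5 without THC 24 h replicates 1 (0.102) or 3 (0.0819) or THC 72 h replicates 1 (0.105) or 2 (0.0565).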

How the results depend on the processing

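Of 3009 single-gene results under the alternatives, 2852 kept their side of the threshold without a called result turning sign. Without a turn of sign, a call was lost by 69 and gained by 61. Signs turned for 27 that were called before or after the change, all when libraries were centred on their medians. Sign changes of results called in neither setting were not counted. Centring left 19 members lower at 24 h (33 as deposited), 2 higher at 72 h (4), and 3 higher and 32 lower at 72 h against 24 h (12 and 13). TPM rescaled without mitochondrially encoded genes left 2 members higher at 72 h. Of the 27, centring turned, at 24 h, PSMA6 to 0.084, PSMB1 to 0.0012, PSMC3 to 0.055, PSMD2 to 0.034, PSMD6 to 0.015, PSMD7 to 0.090, PSMD14 to 0.17 and PSMG2 to 0.15. At 72 h against 24 h it turned PSMA1 to -0.30, PSMA3 to -0.079, PSMA5 to -0.16, PSMA6 to -0.20, PSMA7 to -0.29, PSMB4 to -0.073, PSMB5 to -0.26, PSMB7 to -0.12, PSMC4 to -0.12, PSMC6 to -0.25, PSMD1 to -0.29, PSMD3 to -0.081, PSMD5 to -0.18, PSMD9 to -0.29, PSMD10 to -0.22, PSMD12 to -0.036, NFE2L1 to -0.0055, NFE2L2 to -0.29 and POMP to -0.29. Centring subtracts each library's median, which moved between groups as given above. Without PSMD8 the core to 19S ratio was 1.501 at 24 h and 1.581 at 72 h, against 1.766 in untreated cells. ATAC peaks with -log10 q of at least 5 listed 10 members in all libraries, where 25.3% of tested genes were, against 33 without that limit. Leaving out 1 library gave 5 to 5 members higher and 32 to 34 lower at 24 h. It gave 3 to 5 and 27 to 29 at 72 h, and 10 to 14 and 13 to 14 between the times. By ATAC 33 to 36 were listed, and by H3K4me3 37 to 37. Of 1593 single-gene results, 1536 kept their side of the threshold, and 0 turned sign among those called in either fit. PSMC6 at 72 h lost its call without THC 72 h replicate 3 (0.0786) or untreated replicates 1 (0.0514) or 2 (0.0651). Deviations of same-numbered libraries from their group means correlated by -0.199 to 0.252. Those of differently numbered libraries correlated by -0.235 to 0.219, so no pairing by number was seen. With 3 libraries per group this cannot settle whether numbers mark shared cultures. A replicate block gave 5 higher and 34 lower at 24 h, 5 and 28 at 72 h, and 13 and 14 between the times. Depth is unknown, which limits what the TPM of low genes can show.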

Other observations

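UBB did not pass 0.149 TPM in any of the 9 RNA libraries. Within 2500 bases of UBB (chr17:16380779-16382745) no peak was listed in any of 15 ATAC and H3K4me3 lists. UBB was chosen after its values were seen.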
